A study of Mus musculus and Oryctolagus cuniculus and Sus scrofa with 20 samples.

Results

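Small RNAs were compared between 2 wild type rabbit testis libraries, from males of postnatal day 180 and of postnatal day 110, out of 20 libraries in the series and 8 of rabbit testis. Both came from untreated whole testes, each made from total RNA to which an exogenous spike-in RNA had been added, and nothing in the labels says whether an age was 1 animal or a pool. The other 12 libraries hold mouse germ cells, mouse spermatogonial stem cell lines and adult rat and pig testes, and they were used here only as places to look for the same sequences. The day 180 library held 9615771 reads of 1672868 distinct sequences and the day 110 library 13218352 reads of 2268541 distinct sequences, all of 17 to 41 nt. A distinct sequence with its read count is called a tag here. There was 1 library at each age, so no difference has a replicate check and no test was made. Differences are given as log2 of the day 180 level over the day 110 level, with 95% intervals (exact conditional binomial for ratios, Clopper-Pearson for shares) that cover counting error only. In whole testis, fewer cells of a type and less RNA per cell cannot be told apart.

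Piwi-interacting RNAs (piRNAs) are germ cell small RNAs longer than miRNAs that guide Piwi proteins, silence transposons and, in meiotic and later male germ cells of mammals, arise in great number from dedicated clusters. A primary piRNA most often begins with U, read here as T, and a partner made by the reciprocal cutting known as ping-pong often carries A at position 10. miRNAs guide Argonaute proteins to messenger RNAs, mainly through the seed at bases 2 to 8, and testis holds both germ cell and somatic miRNAs. Fragments of the 5′ end of tRNAs form when a tRNA is cut in or near its anticodon loop, and they are abundant in the male reproductive tract.

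The sequences below carry the comparison. For miRNAs they are the mature mouse sequences of RefSeq (GRCm38.p6), to which the rabbit reads were matched, with the seed in capitals. The first 4 had the differences of greatest size or lay next to the 2-fold threshold, and the last 4 stand for 2 groups described further on.
miR-16-2-3p: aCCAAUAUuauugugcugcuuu
miR-146a-5p: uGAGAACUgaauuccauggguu
miR-146b-5p: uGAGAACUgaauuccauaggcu
miR-450a-5p: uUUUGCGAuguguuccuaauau
miR-200c-3p: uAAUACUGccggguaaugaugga
miR-141-3p: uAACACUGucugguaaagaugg
miR-34b-5p: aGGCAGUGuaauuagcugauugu
miR-449a-5p: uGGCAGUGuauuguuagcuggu
The pair miR-146a and miR-146b shares its seed and differs by G18A and U21C, counted from the 5′ end. The pair miR-34b-5p and miR-449a-5p shares its seed as well.

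For piRNA-sized reads the tags below are read from the deposited lists, with the first T, and an A at position 10 where there is one, in capitals. They are the most read tags that start with T in 3 classes. The first 3 had levels within 2-fold of each other and were ranked by their reads at day 180. The second and the third of them were chosen after their values were seen, because the 2 most read tags of that class are tRNA fragments. The next 3 were at least 4-fold higher at day 180 and the last 3 at least 4-fold lower.
similar tag 1: Tcccagcatcttggacttcaaagctagagc
similar tag 2: Tgcacgtttccggaaccttcagcaccgagc
similar tag 3: TgggaattcAaggacatgagtgcaatctt
day 180 tag 1: TcttatcccAtccaactgtcaggaaatccc
day 180 tag 2: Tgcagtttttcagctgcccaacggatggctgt
day 180 tag 3: TgactgtgaAcacaaccctgaatcctgggt
day 110 tag 1: Tggatacaatggatgctgttgcttcaat
day 110 tag 2: Taaccagcgctgtcaaatgtgtagatgagc
day 110 tag 3: Ttgaatgaaggccattttcagcatctgaaa
None of these 9 tags was read in the adult rat or pig testis libraries or in mouse pachytene spermatocytes or round spermatids.

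Lead tags of abundant tRNA fragments, also from the deposited lists, are shown because they made up much of the tRNA-derived reads. Capitals mark the base at which the forms of the tRNA-Glu tag differ (T6C).
tRNA-Gly: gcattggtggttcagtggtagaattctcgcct
tRNA-Glu-TTC, T form: tcccaTatggtctagcggttaggattcct
tRNA-Glu-TTC, C form: tcccaCatggtctagcggttaggattcct
tRNA-Lys-CTT: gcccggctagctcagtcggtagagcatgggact

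Reads of 25 to 32 nt, the size of piRNAs, dominated both libraries and were the larger share at day 180. They were 76.8% of reads at day 180 (7381750 reads) and 71.1% at day 110 (9396416 reads). miRNA-matched reads were 7.02% of reads at day 180 (674622 reads) and 10.16% at day 110 (1342398 reads). tRNA 5′ fragments of 25 to 41 nt were 6.31% at day 180 and 7.41% at day 110. Those of 25 to 32 nt, 5.88% of reads at day 180 and 6.54% at day 110, also count in the piRNA-sized class. Thus the piRNA-sized class was 5.68 percentage points higher at day 180 while the miRNA share differed by -3.14 points and the tRNA share by -1.10 points. The counting intervals are narrow, for example 76.74% to 76.79% at day 180 and 71.06% to 71.11% at day 110 for the piRNA-sized share. The step before, to the library of day 110, spanned more: at day 90 the piRNA-sized class was 38.96% of reads and the miRNAs 35.6%. That step shares the day 110 library with the comparison made here, so the values are given side by side only.

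**Figure D1:**
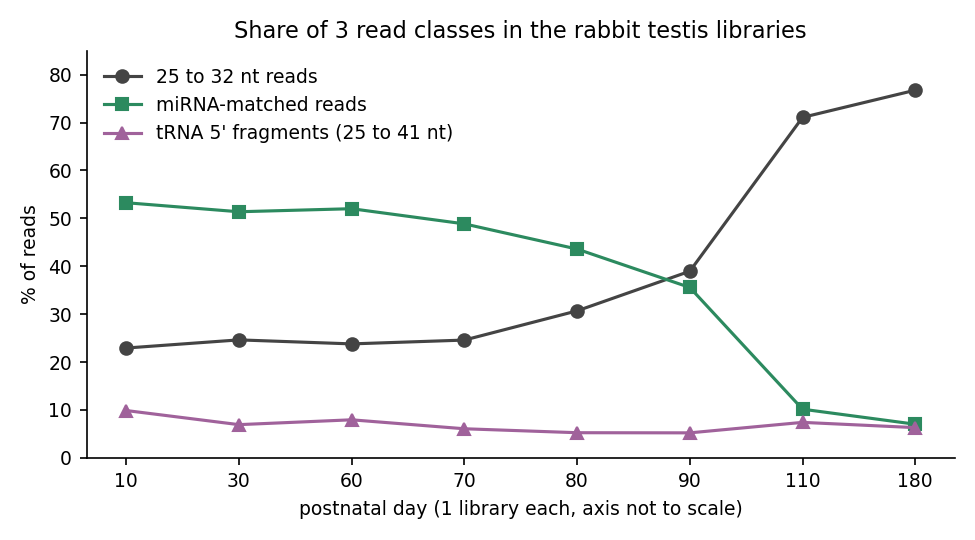
Share of all reads (%) in piRNA-sized reads (25 to 32 nt), miRNA-matched reads and tRNA 5′ fragments in the 8 rabbit testis libraries, 1 per postnatal day, with points joined by lines as a guide. The last 2 points of the piRNA-sized line are 71.1% at day 110 and 76.8% at day 180, against 38.96% at day 90. The classes overlap, since tRNA 5′ fragments of 25 to 32 nt are also counted as piRNA-sized reads.

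The difference in size lay mainly at 29 and 30 nt. Reads of 29 or 30 nt were 38.8% of the day 180 library and 33.1% of the day 110 library. Reads of 25 to 28 nt were 24.7% at day 180 and 23.6% at day 110. Reads of 31 or 32 nt were on the other side, at 13.3% at day 180 and 14.3% at day 110, as were those of 33 to 41 nt, at 2.74% at day 180 and 3.76% at day 110. The miRNA sizes of 21 to 24 nt gave 15.7% at day 180 and 19.8% at day 110. The single most frequent length was 30 nt in both, with 19.5% of reads at day 180 and 17.2% at day 110, and 29 nt came next, with 19.3% at day 180 and 15.9% at day 110.

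A first T, the mark of primary piRNAs, was common at both ages. Of 25 to 32 nt reads, 78.7% began with T at day 180 and 77.2% at day 110. The gap was 0.146 points when reads matched to miRNAs and tRNA fragments were left out, with 82.2% at day 180 and 82.1% at day 110. A 32 nt read began with T less often than reads of 25 to 31 nt, in 35.9% of cases at day 180 and 35.0% at day 110; the tRNA-Gly lead tag, which begins with G, is of that length. Reads with T first averaged 28.79 nt at day 180 and 28.81 nt at day 110. Among reads without a first T and outside tRNA fragments, 41.5% had A at position 10 at day 180 and 41.1% at day 110, against 29.3% at day 180 and 29.9% at day 110 among reads with T first. By first base, mean length of reads with T first and A at position 10 the piRNA-sized reads of both ages were thus close. The shares of 29 and 30 nt above are of all reads, so their gap also takes in the larger 25 to 32 nt class at day 180. Within that class a gap remained. Of its reads whose sequence was found in both libraries, 52.8% at day 180 and 49.4% at day 110 were 29 or 30 nt long. Of its other reads, 39.6% at day 180 and 36.2% at day 110 were.

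**Figure D2:**
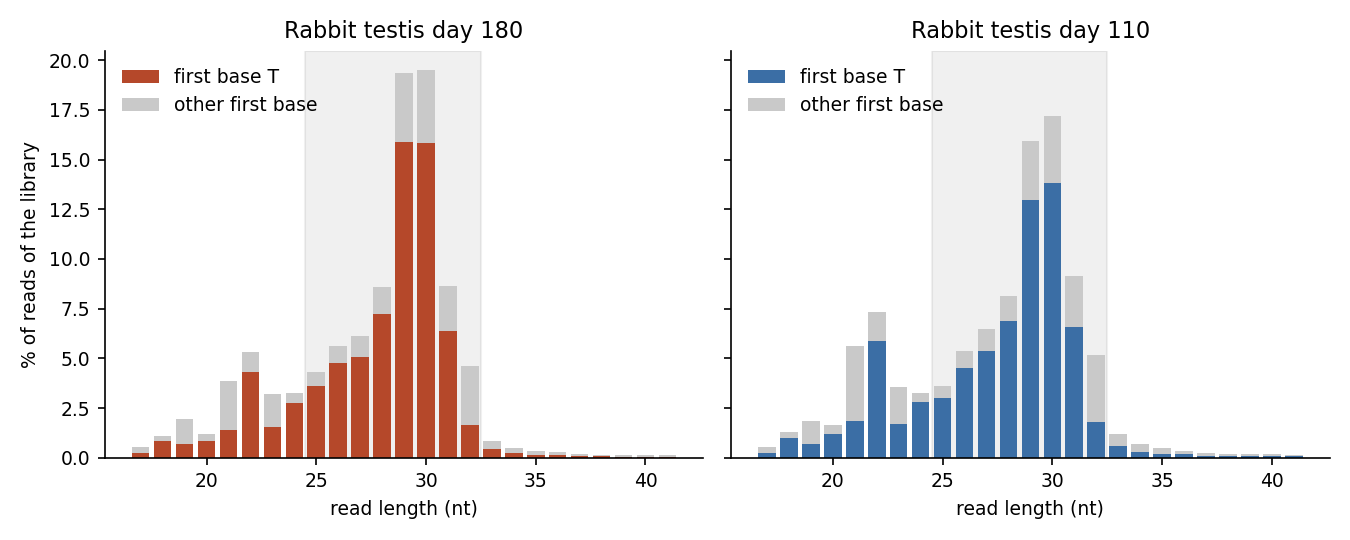
Share of reads (%) at each read length (nt) in the day 180 library (left) and the day 110 library (right), split into reads that begin with T (coloured) and with another base (grey); the shaded band is 25 to 32 nt. Both profiles peak at 30 nt, at 19.5% of reads at day 180 and 17.2% at day 110, and the smaller peak at 22 nt is 5.34% at day 180 and 7.35% at day 110.

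Most piRNA-sized reads, but a minority of tags, were common to both libraries. The lists held 1294307 tags of 25 to 32 nt at day 180 and 1741496 at day 110, of which 476287 were the same sequence. Those shared tags were 36.8% of day 180 tags and 27.3% of day 110 tags. They carried 83.4% of piRNA-sized reads at day 180 and 78.9% at day 110. After both libraries were thinned to 7381750 reads of this size, the shares of reads were 82.4% at day 180 and 78.9% at day 110. Allowing other 3′ ends, by joining tags with the same first 20 nt, brought 91.5% of day 180 reads and 87.9% of day 110 reads into shared sequences.

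Whether a tag was found in the other library followed its depth. Of tags read 1 time, 20.7% of those at day 180 were found at day 110 and 13.0% of those at day 110 were found at day 180. Of tags with 100 reads or more, 96.9% of 7539 at day 180 were found at day 110 and 96.1% of 9083 at day 110 were found at day 180. Private tags were shallow, with 1.502 reads per tag at day 180 and 1.566 at day 110, whereas shared tags had 12.9 reads per tag at day 180 and 15.6 at day 110. Most of the private tags were thus too shallow to be detectable reliably in the other library, and their absence there is not shown.

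Private and shared tags also differed in size and, less so, in first base. Reads in private tags averaged 28.5 nt at both ages, and reads in shared tags 29.03 nt at day 180 and 29.11 nt at day 110. Lengths of 29 or 30 nt made up 39.6% of day 180 private reads and 36.2% of day 110 private reads, against 52.8% of shared reads at day 180 and 49.4% at day 110. Lengths of 26 to 28 nt took the opposite course, with 35.7% of private reads at day 180 and 37.997% at day 110, against 24.7% of shared reads at day 180 and 25.5% at day 110. T came first in 70.4% of tags private to day 180, 70.7% of tags private to day 110 and 79.4% of shared tags. In tags that lack a first T, A at position 10 was seen in 36.8% of those private to day 180, 37.0% of those private to day 110 and 40.3% of the shared ones. The private tags of both ages were thus more like each other than like the shared tags in these features; as private tags are the shallow ones, depth and privacy were not told apart.

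The day 180 tags were also looked for in the younger testes. The share of piRNA-sized reads at day 180 in tags also read there was 35.6% for day 10, 29.5% for day 30, 39.6% for day 60, 32.1% for day 70, 31.8% for day 80, 45.2% for day 90 and 83.4% for day 110. Depth was not matched here: those libraries held 1732234 to 3077551 piRNA-sized reads up to day 90, and 9396416 at day 110. A single read counted as presence, and tRNA fragments, 7.67% of piRNA-sized reads at day 180, were kept in. The 10554 tags with at least 100 reads at day 180 or day 110 had a median of 1 read at day 90. The source of such low counts was not tested. Of the reads in shared tags, 52.96% of those at day 180 and 56.9% of those at day 110 lay in tags also read at day 90. Of reads in private tags, 6.51% at day 180 and 9.50% at day 110 did.

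**Figure D3:**
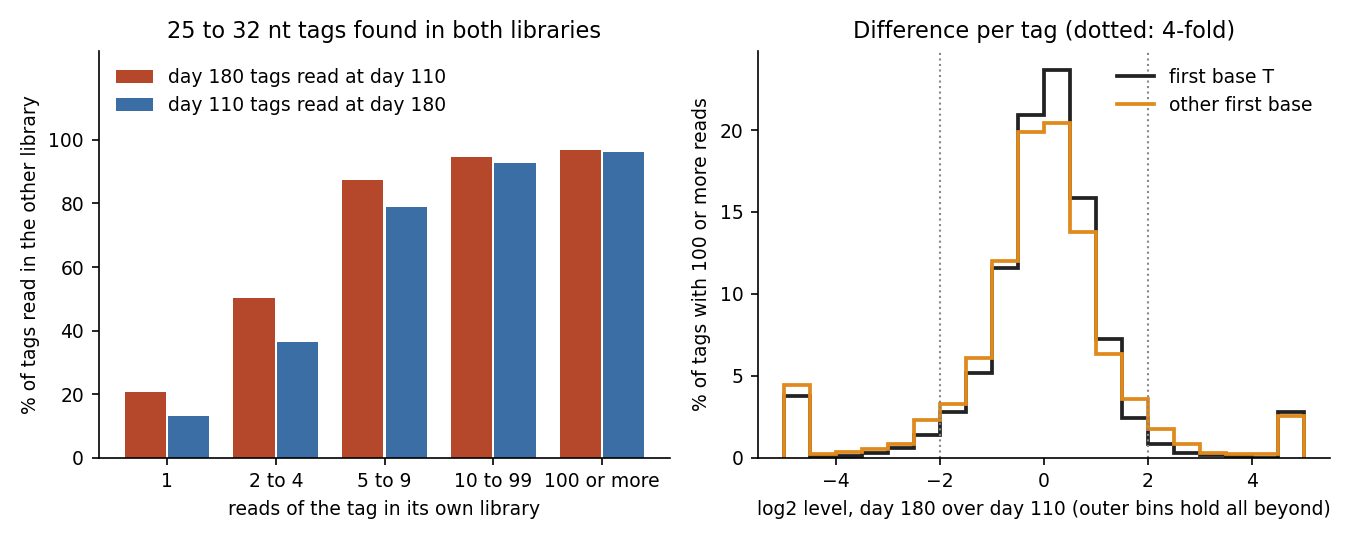
Left, share of 25 to 32 nt tags (%) that were also read in the other library, by the tag's reads in its own library, for day 180 tags and day 110 tags. Right, share of the tags with 100 or more reads in 1 library (%) in each bin of log2 level, day 180 over day 110, for tags that begin with T and with another base; detection climbs from 20.7% (day 180) and 13.0% (day 110) for tags read 1 time to 96.9% (day 180) and 96.1% (day 110) at 100 reads or more, and the outermost bins hold the tags that are nearly or wholly missing from 1 library.

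Most well-read tags had similar levels at both ages, and a smaller class differed by 4-fold or more. Of 10554 tags with at least 100 reads in 1 library, 7517 were within 2-fold, 461 were at least 4-fold higher at day 180 and 688 at least 4-fold lower, a called share of 10.9%. The minimum is a raw count. It was reached by 9083 tags at day 110, the library with more reads of this size, and by 7539 at day 180. The numbers of higher and lower tags are thus not a like comparison. Levels here are reads per 1000000 reads of 25 to 32 nt. The median log2 difference over the 10554 tags was 0.06 (quartiles -0.55 and 0.63), and scaled to all reads it was 0.17. Spearman's rho over the 10554 tags was 0.548, a description across tags that share their libraries and are not replicates. For scale, 94.8% of 9608 tags were at least 4-fold apart between day 110 and day 90, 8446 of them higher at day 110. The 461 tags made up 2.13% of piRNA-sized reads at day 180 and 0.151% at day 110. The 688 tags made up 0.186% at day 180 and 2.34% at day 110.

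The tags shown above illustrate each class. Similar tag 1 had 22432 reads at day 180 and 24558 at day 110, a log2 difference of 0.22 (0.19 to 0.24). Similar tag 2 had 20457 reads at day 180 and 21917 at day 110 (log2 0.25, interval 0.22 to 0.28), and similar tag 3 had 17038 reads at day 180 and 14673 at day 110 (log2 0.56, interval 0.53 to 0.60). All 3 were far rarer at day 90, with 19, 54 and 22 reads. Day 180 tag 1 had 8446 reads at day 180 and 2407 at day 110, a log2 difference of 2.16 (2.09 to 2.23). Day 180 tag 3 had 4902 reads at day 180 and 397 at day 110, a log2 difference of 3.97 (3.83 to 4.13). Day 110 tag 1 had 850 reads at day 180 and 6551 at day 110, a log2 difference of -2.60 (-2.70 to -2.49). These are graded differences, in which both libraries held at least 397 reads of the tag.

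Other tags were close to all or none. Day 180 tag 2 had 7362 reads at day 180 and 4 at day 110 (log2 11.19, interval 9.84 to 13.07). Day 110 tag 2 had 3 reads at day 180 and 3872 at day 110 (log2 -9.99, interval -12.26 to -8.44), and day 110 tag 3 had 2 reads at day 180 and 3221 at day 110 (log2 -10.31, interval -13.35 to -8.45). Of the 461 tags, 232 were not read at day 110 at all, and of the 688 tags, 354 were not read at day 180. Of the 461 tags 54.0% were 29 or 30 nt long and of the 688 tags 45.5%, against 54.1% of the tags within 2-fold. T came first in 83.3% of the 461 tags and 83.4% of the 688, against 87.6% of all compared. At day 90, 29.3% of the 461 tags and 53.8% of the 688 were read at least 1 time, against 56.3% of all compared.

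In many of these cases the library that lacked the tag held the same tag with 1 base changed. Day 110 tag 2 has a C at position 8, and the tag that differs from it by C8T had 6532 reads at day 180 and 3786 at day 110. Capitals mark that base.
day 110 tag 2: taaccagCgctgtcaaatgtgtagatgagc
its 1-base neighbour: taaccagTgctgtcaaatgtgtagatgagc
The day 110 library thus held both forms at nearly equal counts, while the day 180 library held 1 of them almost alone. Summed with all tags of the same length that differ by 1 base, the sequence had 6535 reads at day 180 and 7718 at day 110, a log2 difference of 0.11. For day 180 tag 2 the neighbour differing by C22T had 1 read at day 180 and 549 at day 110.
day 180 tag 2: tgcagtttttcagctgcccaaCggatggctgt
its 1-base neighbour: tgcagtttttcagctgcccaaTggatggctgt
There the sums stayed apart, with 7593 reads at day 180 and 553 at day 110 (log2 4.13). No neighbour of day 110 tag 3 was read at day 180.

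Over the whole class, 39.3% of the 461 tags and 39.1% of the 688 tags had such a neighbour in the library where they were low; such a neighbour outnumbered the tag there and reached at least 25% of the tag's level in the other library. By the same measure, with the day 180 library searched, 6.92% of the 7517 tags within 2-fold had one. The shares of these classes are not a like comparison, since a tag that is 4-fold low is more easily outnumbered by a neighbour than one within 2-fold. Changes between A and G or between C and T made up 75.1% of the neighbours of the 461 tags, 75.8% of those of the 688 tags and 47.3% of those of the 7517 tags; in the 7517 tags 276 of the 520 neighbours differed at the last base. When every tag was summed with its 1-base neighbours, 271 tags were at least 4-fold higher at day 180 and 402 at least 4-fold lower, 6.38% of 10554. Of the 586 tags not read in the other library, 187 then lay within 2-fold and 289 remained at least 4-fold apart. This sum was chosen after the data were seen. What these forms are was not tested.

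The 3′ ends of the piRNA-sized reads were also compared, for the 6953 sequences with T first whose first 20 nt had at least 100 reads in both libraries, tRNA fragments left out. They carried 58.9% of such reads at day 180 and 55.5% at day 110. The median of their mean lengths was 28.9 nt at both ages, and the median of the differences was -0.04 nt (quartiles -0.16 and 0.08). The mean was shorter at day 180 for 4083 and longer for 2868. Sequences with the same 5′ end thus had nearly the same lengths at both ages. By exact tag with T first there was no single trend with length: the median log2 difference was 0.23 at 25 nt (460 tags), -0.06 at 26 nt, -0.25 at 27 nt (771 tags), 0.00 at 28 nt, 0.24 at 29 nt (2389 tags), 0.13 at 30 nt, -0.16 at 31 nt and -0.24 at 32 nt (243 tags).

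The miRNAs of both ages were nearly the same in rank and level. Spearman's rho over the 135 miRNAs with at least 100 reads in 1 library was 0.977, a description across miRNAs that share their libraries and are not replicates. Only 3 of the 135 were 2-fold apart or more in reads per 1000000 miRNA reads, 1 higher at day 180 and 2 lower, a called share of 2.22%. Between day 110 and day 90, 52 of 171 were, 28 higher and 24 lower at day 110, or 30.4%. The 10 most abundant miRNAs were the same 10 at both ages and held 67.4% of miRNA reads at day 180 and 68.1% at day 110. miR-99a-5p, a relative of miR-100 abundant in many somatic tissues, led with 19.002% of miRNA reads at day 180 and 21.7% at day 110. miR-26a-5p followed with 9.20% at day 180 and 10.1% at day 110, and miR-10b-5p, encoded in a Hox cluster, with 9.15% at day 180 and 8.22% at day 110. The other 7 were let-7f-5p, the let-7a and let-7c entry, miR-191-5p, miR-100-5p, let-7g-5p, miR-148a-3p and miR-99b-5p, with log2 differences from -0.06 to 0.23. With a match to the whole mouse sequence miR-191-5p had -0.27 in place of 0.21.

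The scaling bears on the sign of many of these small differences. Per miRNA reads, 80 of 135 miRNAs were higher and 55 lower at day 180, with a median log2 of 0.12 (quartiles -0.16 and 0.40). Per all reads, every log2 value is 0.53 lower, the median becomes -0.41, and 23 were higher and 112 lower. The split of the calls then becomes 1 higher and 9 lower.

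miR-146a-5p, which in immune cells damps signalling through Toll-like receptors, had the largest difference. It had 941 reads at day 180 and 7687 at day 110. That is 1395 reads per 1000000 miRNA reads at day 180 and 5726 at day 110, a log2 difference of -2.04 (-2.14 to -1.94). The day 110 value was the highest of the 8 ages, and the 6 younger testes lay between 595 and 1310 reads per 1000000 miRNA reads. Its seed partner miR-146b-5p had 176 reads at day 180 and 1337 at day 110. That is 261 per 1000000 at day 180 and 996 at day 110, a log2 difference of -1.93 (-2.17 to -1.70). The younger testes ranged widely for miR-146b, between 55.5 per 1000000 at day 30 and 1285 at day 90, and the day 180 level lies within that range. Of the reads of 21 nt or more assigned to miR-146b, 176 of 176 at day 180 and 1327 of 1332 at day 110 had C at position 21, the base of miR-146b in U21C. A match to the whole mouse sequence kept only 14 reads at day 180 and 25 at day 110, and its log2 difference was then 0.17. miR-16-2-3p, the passenger strand of a miR-16 hairpin, was the only miRNA at least 2-fold higher, with 103 reads at day 180 and 69 at day 110 (log2 1.57, interval 1.12 to 2.03). Its partner strand miR-16-5p had 806 reads at day 180 and 1485 at day 110 (log2 0.11, interval -0.01 to 0.24). Just inside 2-fold, miR-450a-5p, an X-linked neighbour of miR-503, had 2219 reads at day 180 and 8819 at day 110 (log2 -0.998, interval -1.07 to -0.93).

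The other 9 of the 12 most negative differences had log2 values from -0.72 to -0.43, none of them 2-fold. They were miR-195a-5p (241 reads at day 180, 789 at day 110), miR-199a-5p (3540 reads at day 180, 11563 at day 110), miR-136-3p (168 reads at day 180, 529 at day 110), miR-501-5p, miR-192-5p, miR-22-3p, miR-423-5p, miR-221-5p and miR-222-3p. The direction of miR-136-3p rests on the matching: its log2 was -0.66 by the first 18 nt and 1.01 by the whole mouse sequence. No read in either library matched the whole mouse sequence of miR-501-5p. The other 11 of the 12 most positive differences had log2 values from 0.79 to 0.97. They were miR-106b-3p (363 reads at day 180, 370 at day 110), miR-200c-3p (686 reads at day 180, 708 at day 110), miR-141-3p (383 reads at day 180, 401 at day 110), miR-30a-3p, miR-34b-3p (655 reads at day 180, 718 at day 110), miR-499-5p, miR-203-3p, miR-93-5p (1800 reads at day 180, 2000 at day 110), miR-144-3p, miR-106b-5p and miR-672-5p. The direction of miR-144-3p also rests on it, with 0.81 by the first 18 nt and -0.73 by the whole sequence.

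By group, the miRNAs of late germ cells, and those first known from epithelia, had the higher medians at day 180. Counts of members 2-fold apart were 0 in every list described here except the miR-15 and miR-16 list, which holds miR-16-2-3p. The miR-34 and miR-449 list, whose members appear with meiosis in mouse testis, had 3 members compared, all higher, with a median log2 of 0.74; per all reads 2 were higher and the median was 0.21. miR-449a-5p had 9595 reads per 1000000 miRNA reads at day 180 and 6917 at day 110 (log2 0.47), and miR-34b-5p had 196 at day 180 and 117 at day 110 (log2 0.74). The list summed to 1.08% of miRNA reads at day 180 and 0.757% at day 110, against 0.0196% at day 90. miR-449a-5p made up most of the sum at both of the compared ages. Of the 7 entries on the list, 2 had no read in either library. The 3 members compared were present in both libraries, whose labelled tissue is testis. Of the epithelial list (the miR-200 family, miR-203 and miR-205), 5 of 5 compared were higher, with a median log2 of 0.85; they were higher under each scaling, per all reads by a median of 0.32. miR-200a-3p, its most abundant member, had 6140 reads per 1000000 at day 180 and 3781 at day 110 (log2 0.70, or 1.42 with a match to the whole mouse sequence). The list summed to 0.817% of miRNA reads at day 180 and 0.487% at day 110. miR-205-5p, the marker of stratified epithelia on this list, had 0 reads at day 180, which allows up to 3 reads, and 10 at day 110. The part of other epithelia in these levels was not tested.

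The growth-related clusters leaned the same way. Of the miR-17/92 and miR-106 clusters, which serve proliferating cells, 9 of 10 compared were higher, with a median log2 of 0.41; per all reads 4 were higher and the median was -0.13. miR-93-5p had 2668 reads per 1000000 at day 180 and 1490 at day 110 (log2 0.84), and miR-92a-3p had 8808 at day 180 and 8792 at day 110 (log2 0.00). Of the miR-30 family 4 of 5 were higher, with a median of 0.43, or -0.10 per all reads. Of the mesenchymal list 6 of 8 were lower, with a median of -0.21, and per all reads 8 of 8; the list summed to 34.2% of miRNA reads at day 180 and 36.9% at day 110. miR-199a-5p had 5247 reads per 1000000 at day 180 and 8614 at day 110 (log2 -0.72), and miR-125b-5p had 12818 at day 180 and 17105 at day 110 (log2 -0.42). miR-202-5p, a gonadal somatic miRNA, had 12487 reads per 1000000 at day 180 and 12564 at day 110 (log2 -0.01, interval -0.05 to 0.03). Of let-7 members 3 were higher and 4 lower, with a median of -0.06, and 7 of 7 lower per all reads. Of 5 miRNAs of the Dlk1-Dio3 imprinted region compared, 2 were higher and 3 lower, with a median of -0.01, although miR-127-3p, the most abundant of them, was at 5390 per 1000000 at day 180 and 5421 at day 110, against 15841 at day 90; per all reads 5 of 5 were lower.

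In the lists of other cell types no member compared was 2-fold apart. The blood list (miR-451a and miR-144-3p compared) summed to 0.0892% of miRNA reads at day 180 and 0.0630% at day 110. Per all reads its members were 1 higher and 1 lower. The endothelial miR-126a-3p was at 0.656% at day 180 and 0.457% at day 110, with a log2 of 0.52 that is -0.01 per all reads. miR-133b-3p, of muscle, was at 0.00964% at day 180 and 0.0108% at day 110, and the interval of its log2 runs from -0.61 to 0.27. These reads were assigned by the first 18 nt, and none in either library matched the whole mouse sequence of miR-133b-3p. The 2 neural or endocrine miRNAs compared, miR-7a-5p (log2 0.36) and miR-9-5p (log2 0.75), were both higher per miRNA reads, and 1 of them per all reads. The part of these cell types in the differences above was not tested. Among the remaining families, 3 of 6 were higher for miR-15/16 and 3 of 6 for miR-181, with medians near 0; per all reads 1 of 6 and 0 of 6 were higher. For the list of miR-183, miR-96 and miR-182 it was 3 of 3 (median 0.29, or -0.24 per all reads) and for that of miR-191 and miR-425 2 of 2 (median 0.21, or -0.33 per all reads). Of the miR-506 family, X-linked miRNAs of the male germline, 4 of 5 were higher with a median of 0.26, or -0.28 per all reads. miR-741-3p had 303 reads at day 180 and 467 at day 110 (log2 0.37, interval 0.16 to 0.58) and miR-871-3p 302 at day 180 and 503 at day 110 (log2 0.26, interval 0.05 to 0.47). Reads equal to miR-294-3p, known from mouse embryonic stem cells, numbered 287 at day 180 and 339 at day 110. The source of these reads, and of those assigned to the mouse miR-506 family, was not tested.

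**Figure D4:**
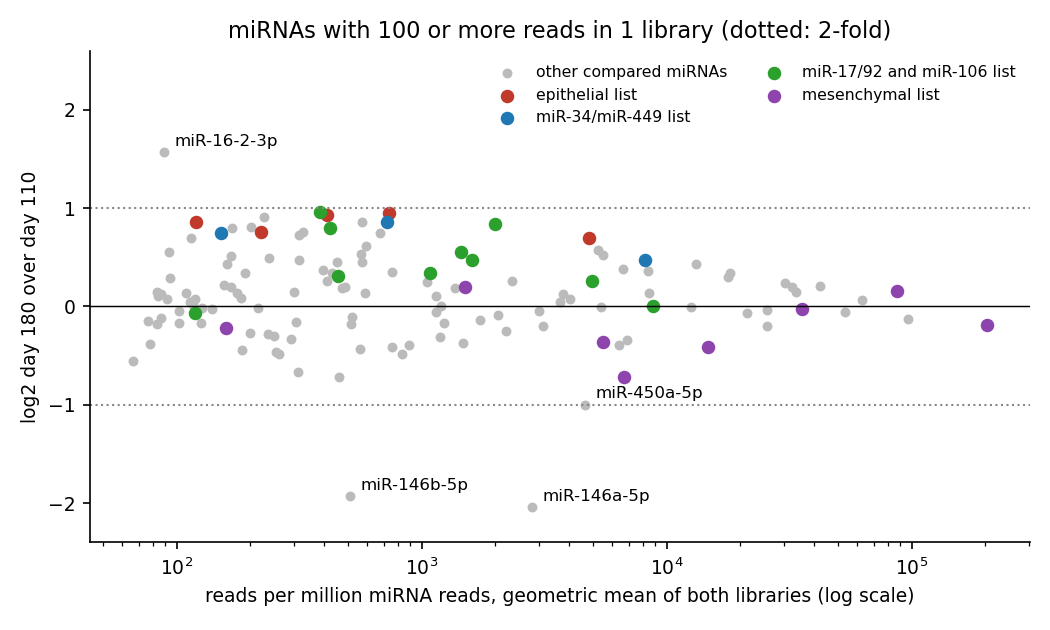
log2 level, day 180 over day 110, against the geometric mean level (reads per 1000000 miRNA reads, log scale) of the 135 miRNAs with at least 100 reads in 1 library; colours mark 4 lists and dotted lines 2-fold. Beyond the lines lie miR-16-2-3p at 1.57, miR-146b-5p at -1.93 and miR-146a-5p at -2.04, and the 5 epithelial points lie between 0.70 and 0.95.

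Fragments of tRNA 5′ ends, a somewhat smaller share of reads at day 180 (606649 reads at day 180 and 978889 at day 110), held more tRNA-Glu-TTC at that age. Of 12 tRNAs with at least 1000 reads in 1 library, 11 had a lower share of all reads at day 180 and 6 a share at least 2-fold lower. Most of these fragments, 565857 reads at day 180 and 864416 at day 110, are 25 to 32 nt long and so lie within the piRNA-sized class. The shares are of all reads, so more reads of other kinds at day 180 would lower them. This part was not told apart. tRNA-Gly fragments were the most abundant at 3.73% of reads at day 180 (359055 reads) and 4.52% at day 110 (597751 reads), a log2 difference of -0.28 (-0.28 to -0.27). The tRNA-Gly lead tag of 32 nt alone had 194165 reads at day 180 and 300483 at day 110. tRNA-Glu-TTC was the exception, at 1.55% of reads at day 180 (149397 reads) and 1.35% at day 110 (178734 reads), a log2 difference of 0.20 (0.19 to 0.21). Within tRNA 5′ reads, which no scaling touches, tRNA-Glu-TTC made up 24.6% at day 180 and 18.3% at day 110, and tRNA-Gly 59.2% at day 180 and 61.1% at day 110. The same tRNA-Glu-TTC fragments were at 0.581% of reads at day 90 and 0.328% at day 80.

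The forms of the tRNA-Glu-TTC tag did not differ alike. The T form had 45871 reads at day 180 and 43983 at day 110, which is 4770 per 1000000 reads at day 180 and 3327 at day 110 (log2 0.52). The C form had 34128 reads at day 180 and 39763 at day 110, which is 3549 per 1000000 reads at day 180 and 3008 at day 110 (log2 0.24). Both forms begin with T and are 29 nt long, so they fall among the piRNA-sized reads, where tRNA fragments were 7.67% of reads at day 180 and 9.20% at day 110. The tRNA-Glu-TTC fragments lay nearer to a single main length at day 180, with 63.5% of them 29 nt long at day 180 and 56.1% at day 110. This was not particular to tRNA-Glu-TTC. The share at the main length was also higher at day 180 for tRNA-Gly, tRNA-Lys-CTT, tRNA-Val, tRNA-His, tRNA-Cys and tRNA-Gln. It was lower for tRNA-Asp, tRNA-Lys-TTT, tRNA-Pro and tRNA-Leu.

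The rarer fragments had the larger differences. tRNA-Lys-CTT was at 0.167% of reads at day 180 and 0.321% at day 110 (log2 -0.94, interval -0.97 to -0.92). tRNA-Val was at 0.0522% at day 180 and 0.142% at day 110 (log2 -1.44), and tRNA-His at 0.0539% at day 180 and 0.144% at day 110 (log2 -1.42). Besides tRNA-Val and tRNA-His, those lower by 2-fold or more were tRNA-Lys-TTT (log2 -1.46), tRNA-Pro (-1.07), tRNA-Gln (-1.47) and tRNA-Leu (-1.70), the last with 805 reads at day 180 and 3586 at day 110. tRNA-Cys, at -0.99, lay just inside 2-fold, and tRNA-Asp was at -0.23. A fragment of the 3′ end of tRNA-Asp, with 1768 reads at day 180 and 6879 at day 110, was also lower (log2 -1.50). The lengths of tRNA-His fragments differed as well: 47.0% were 34 nt long and 10.9% were 31 nt long at day 180, whereas 25.9% were 34 nt long and 34.5% were 31 nt long at day 110. The tRNA-Val lead tag equals the start of the mouse gene n-TVcac9 (GRCm38.p6, chr13:23446142-23446214, minus strand), and the tRNA-His lead tag that of n-THgtg7 (chr3:96452495-96452566, plus strand) after 1 extra base at its 5′ end; a base is added there in mature tRNA-His.

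**Figure D5:**
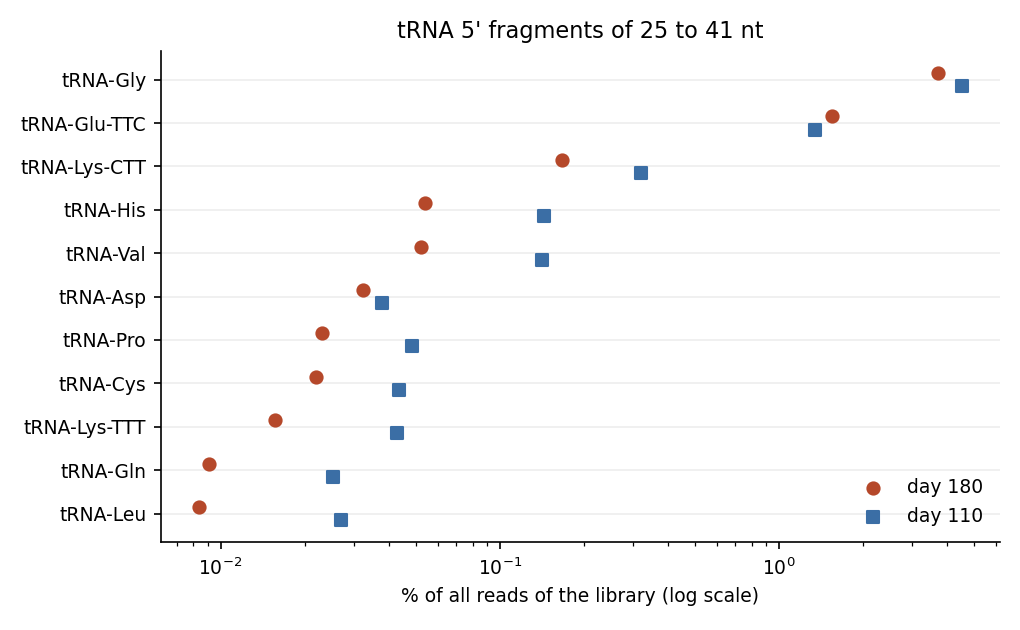
Share of all reads (%, log scale) in 5′ fragments of 25 to 41 nt of 11 of the 12 tRNAs, at day 180 (circles, above) and day 110 (squares, below). tRNA-Glu-TTC is the one tRNA shown with the circle to the right, at 1.55% at day 180 against 1.35% at day 110, and the gap is widest for tRNA-Leu, at 0.00837% at day 180 against 0.0271% at day 110.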

How the data were processed

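Each deposited file lists distinct read sequences with raw read counts made by the authors, not normalised. Bowtie and the builds mm10 (GRCm38), OryCun2.0, rn6 (Rnor_6.0) and susScr3 (Sscrofa10.2) are named in the submitters' processing notes without roles. Adapter trimming and length limits are not given in the sources used here, and the lists were used as sequences, without a genome. The spike-in's sequence is not given in the sources used here, so it set no scale. Totals were 9615771 reads at day 180 and 13218352 at day 110; PCR reads without molecular identifiers are not independent molecules.

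Reads from 18 to 26 nt long counted for a miRNA if their first 18 nt equalled those of a mature mouse sequence in RefSeq (GRCm38.p6; 1731 sequences joined into 1660 entries). Levels are per 1000000 miRNA reads, and miRNAs with at least 100 reads in 1 library were compared. Tags of 25 to 32 nt were compared exactly, those with at least 100 reads in 1 library per 1000000 reads of that size. A count of 0 was set to 3. Fragments of tRNAs are families of reads of 25 to 41 nt with the same first 18 nt, at least 1000 reads in 1 of the libraries and at least 10 reads in each of pig, rat and 2 mouse libraries, joined when within 2 edits. Their names come from knowledge of tRNA 5′ ends, checked against the anticodon in reads of 38 nt or more of both libraries. It stood in 54 of 123 such reads of tRNA-Gly, 11 of 42 of tRNA-Val and 6 of 22 of tRNA-Asp. Shares were higher for tRNA-Lys-CTT (2521 of 2537), tRNA-Glu-TTC (543 of 562), tRNA-Gln (60 of 63), tRNA-Lys-TTT (58 of 61), tRNA-His (37 of 45) and tRNA-Pro (20 of 20). tRNA-Leu (2 of 2) and tRNA-Cys (1 of 2) had too few such reads for a check. Only tRNA-Val and tRNA-His could be compared with mouse genes. 1 of the 12 tRNAs is not reported here by name.

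Named are the 10 most abundant miRNAs, the 12 largest differences each way, members of lists, and the most read tags of 3 classes. Members and lists were chosen with earlier results of these data known. No test was made. Python 3.11.15, scipy 1.17.1, edgeR 4.0.16 (TMM factors) and DESeq2 1.42.0 (size factors) were used. Alternatives were other scalings, minimum counts, length windows, matching and thinning.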

Additional observations from a re-analysis of the deposited data

Results flagged for a closer look

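Outside the measurements above, 27 tags of 18 to 24 nt that match no mouse miRNA had at least 1000 reads in every rabbit library and none in the other 12 libraries. They made up 1.94% of reads at day 180 and 3.0008% at day 110, against 4.72% at day 90, and their log2 differences between day 180 and day 110, per all reads, ran from -2.06 to 0.36 with a median of -0.66. They were singled out as a signal that no comparison of the report uses. The labels say that an exogenous spike-in was added to the rabbit RNA; which of these tags belong to it, and which are rabbit RNAs absent from the mouse table, was not tested.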

How the results depend on the processing

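No paired analysis was possible because each age has 1 library. The number of miRNAs at least 2-fold apart, 3 of 135, was 10 when scaled to all reads (1 higher, 9 lower) and 23 of 251 with a minimum of 10 reads; it was 2 to 4 under TMM factors, DESeq2 size factors, a minimum of 1000 reads and the full mature match. The log2 of miR-146b-5p was 0.17 with the full match, which keeps 14 of its reads at day 180 and 25 at day 110, in place of -1.93. Of 86 named miRNAs, 84 had reads under the full match, and miR-133b-3p and miR-501-5p had none. Of these 84, 10 change sign under the full match. Among them are miR-136-3p (1.01 in place of -0.66), miR-144-3p (-0.73 in place of 0.81), miR-191-5p (-0.27 in place of 0.21) and miR-127-3p (0.23 in place of -0.01). The day 180 minus day 110 difference in miRNA share, -3.14 points, was -1.83 with the full match. That of the 25 to 32 nt share, 5.68 points, was 3.45 without miRNA and tRNA reads, 5.53 at 26 to 31 nt and 0.603 by distinct tags. That of the first-T share, 1.5002 points, was 0.146 without miRNA and tRNA reads and 0.626 by distinct tags. The mean length of reads with T first differed by -0.0154 nt, by -0.0036 nt over distinct tags and by -0.0156 nt at 24 to 34 nt. The shared read share, 83.4% at day 180 and 78.9% at day 110, was 91.5% at day 180 and 87.9% at day 110 by the first 20 nt, and 73.2% at day 180 and 68.3% at day 110 with at least 5 reads in the other library; thinning gave 82.4% at day 180. Tags at least 4-fold apart, 1149 of 10554, were 9083 of 58562 with a minimum of 20 reads and 673 after summing 1-base neighbours, but 1150 scaled to all reads and 1079 of 12367 by the first 20 nt. The tRNA share differed by -1.10 points, and by -1.96 with reads of 25 nt or more as denominator. The cause of each change was not tested. Each age had 1 library. Most tags read 1 time were not found in the other library, and the part of depth in this was not tested.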
